A study of Mus musculus with 14 samples.

Results

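Fatty acid oxidation was followed through 33 genes of the mitochondrial and peroxisomal pathways, chosen by gene symbol from the 55291 symbols of the deposited tables. Of these, 18 encode mitochondrial proteins, 12 encode peroxisomal proteins and 3 encode proteins found in both compartments. The carnitine palmitoyltransferase genes were not part of the set. Messenger RNA was measured in 14 mouse libraries from 2 experiments, all labelled wild type and as CD8+ T cells. In the first, 4 libraries came from OT-1 splenocytes grown with ND-646, which the labels call ACCi, at 100 nM and 4 from splenocytes grown with DMSO as vehicle. ND-646 inhibits acetyl-CoA carboxylase, the enzyme that makes malonyl-CoA. Both arms received 1 µg/mL of the OVA 257-264 peptide, which the OT-1 receptor recognises, and 200 U/mL rhIL-2, with 3 days of activation, 4 days of expansion and 7 days in all. Whole splenocytes were cultured, so other cells of the spleen were present at the start. In the second, CD8+ T cells were taken from MCA205 fibrosarcoma tumours (3 libraries) and from spleens (3 libraries) of C57BL/6 mice on day 14 after injection, enriched and then sorted. Tumour samples are described as pooled, but of what is not said. Mouse ages are not given, nor whether the replicates of an experiment are different mice or cultures. A p-value here sets a difference against the variation among these libraries, part of which may be technical.

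In mitochondrial beta-oxidation, acyl chains enter as carnitine esters through a carrier, are oxidised by acyl-CoA dehydrogenases of different chain-length preference, hydrated, oxidised again and cleaved by thiolases, and the electrons of the dehydrogenase step pass through electron transfer flavoprotein to the respiratory chain. Peroxisomes shorten very long and branched chains with an oxidase in place of the dehydrogenase, remove a carbon from phytanic acid by alpha-oxidation, and export shortened products as carnitine esters or free acids. Malonyl-CoA, the product of acetyl-CoA carboxylase, inhibits the carnitine palmitoyltransferase that feeds the mitochondrial pathway, and fatty acid oxidation has been studied in CD8+ T cells mainly for its use by memory cells.

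Library totals ran between 23.46 and 33.81 M (1000000 counts) in the cultures and between 19.58 and 21.02 M in the sorted cells, and 32 of the 33 genes passed the filter on low counts in each experiment. The exception in both was Abcd2, a peroxisomal importer of very long acyl chains, which had counts in 1 ND-646 library (0.0293 CPM) and in no vehicle library, and stood at 0.494, 0.359 and 0.813 CPM in tumour and 0.386, 0.3 and 0.499 CPM in spleen libraries. A count of 0 allows up to 3 counts, or 0.105 to 0.129 CPM in a vehicle library, covering counting error only. Levels are given as counts per 1000000 counts of the TMM-scaled library (CPM), and a change was called at an adjusted p below 0.05 in edgeR's quasi-likelihood test over all genes tested. The tumour and spleen libraries carried transcripts of other cells. All 15 fibroblast and fibrosarcoma markers that passed the filter were higher in tumour libraries, with a summed level of 11470 to 16587 CPM, against 1.85 to 17.7 CPM in spleen libraries, while the 15 CD8 T cell identity genes summed to 4317 to 5779 CPM in tumour and 9204 to 9284 CPM in spleen libraries. Summed myeloid markers were at 350.3 to 481 CPM in tumour and 16.7 to 20.55 CPM in spleen libraries (7 of 11 tested were higher in tumour). Summed NK cell markers were at 41.1 to 68.02 CPM in tumour and 5.89 to 8.38 CPM in spleen libraries (5 of 5 higher), and summed B cell markers at 56.7 to 73.5 CPM in tumour and 798 to 829.8 CPM in spleen libraries (5 of 5 lower).

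In the cultures, summed myeloid markers were at 60.4 to 73.7 CPM with ND-646 and 252 to 267 CPM with vehicle (6 of 7 tested were lower with ND-646, and C1qc, S100a8 and S100a9 were at 0 in all 8 libraries). CD8 identity genes summed to 5407 to 5517 CPM with ND-646 and 5845 to 6208 CPM with vehicle (5 higher and 7 lower of 15). The sums of NK cell markers were 6.67 to 7.29 CPM with ND-646 and 24.2 to 27.1 CPM with vehicle (3 of 4 lower), those of B cell markers 148 to 173 CPM with ND-646 and 114 to 130.1 CPM with vehicle (1 higher and 5 lower of 6), and those of fibroblast markers 10.1 to 12 CPM with ND-646 and 10.7 to 11.4 CPM with vehicle (1 higher and 2 lower of 5, with Col5a1 at 0). The part of these other cells in the changes given here was not tested. In bulk RNA, fewer cells of a type and less RNA per cell cannot be told apart. For this reason each comparison was repeated with libraries scaled to the summed counts of the 15 CD8 identity genes, which moved the median log2 fold change of all genes up by 0.14 in the cultures and by 0.88 between tumour and spleen, and each direction that turns under this scaling, called or not, is named beside its value.

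The comparison of ND-646 with vehicle asks how transcripts of fatty acid oxidation stood in cells grown with acetyl-CoA carboxylase inhibited. Most changes were small. The peroxisomal genes Phyh, of alpha-oxidation, and Acaa1a, a thiolase, had the highest log2 fold changes of the set for ND-646 over vehicle, while carnitine acetyltransferase, the beta subunit of electron transfer flavoprotein and Scp2 were lower with ND-646. Of 32 genes tested, 21 were called, against 56.3% of all genes tested. Of these 15 were higher with ND-646, against 29.8% of all 14251 genes tested, and 6 were lower, against 26.5% of all genes. By compartment, 7 of 18 mitochondrial genes were higher and 4 lower, 6 of 11 peroxisomal genes were higher and 1 lower, and of the 3 genes of both compartments 2 were higher and 1 lower. The median log2 fold change was 0.01 for the mitochondrial and 0.16 for the peroxisomal genes, against 0.01 for all genes tested. The ND-646 and vehicle libraries did not overlap in 22 of the 32 genes, against 51.1% of all genes. Under CD8 identity scaling 21 genes were higher, against 46.0% of all genes, and 3 lower, with 12 mitochondrial genes higher and 1 lower and 7 peroxisomal genes higher and 1 lower. The 15 higher calls were among the 21, and the other 6 were Acads, Echs1, Acaa2, Eci1, Etfa and Acox3. Of the 6 lower calls, those of Etfb, Scp2 and Crat remained (15.8% of all genes were lower under this scaling), that of Slc25a20 was lost, and Acadvl and Acad9 turned to a log2 fold change of 0.0043 and 0.0079.

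**Figure D1:**
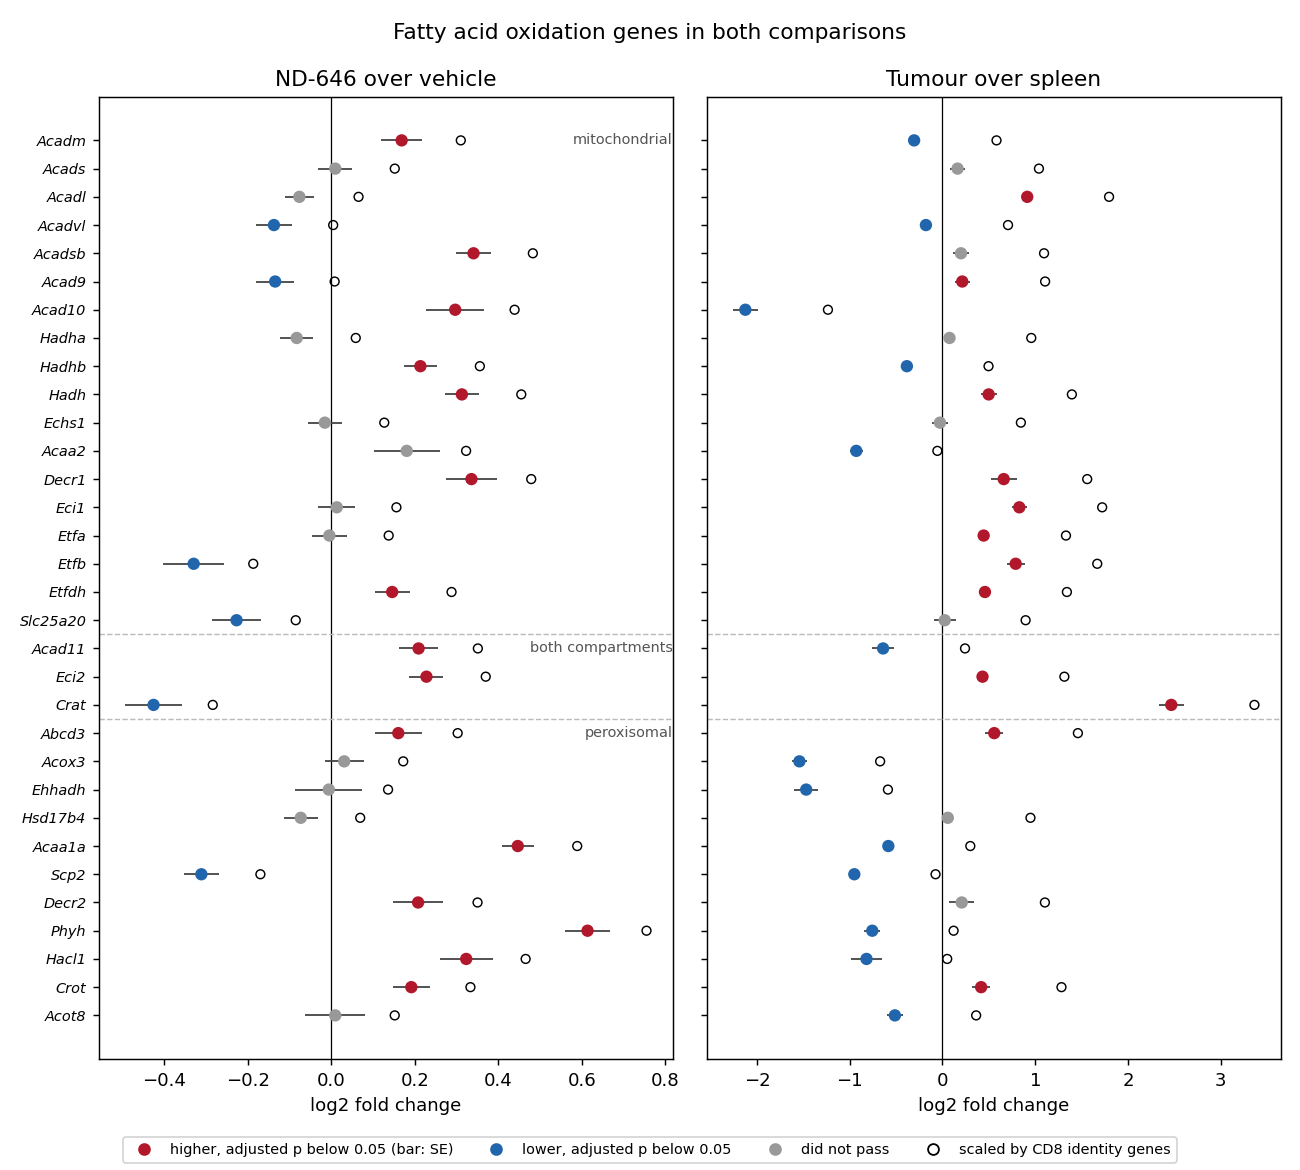
Log2 fold change of each tested gene for ND-646 over vehicle (left) and tumour over spleen (right), with filled points for the TMM-scaled fit (bars: SE; red higher, blue lower, grey not called) and open circles for scaling by CD8 identity genes. Open circles lie right of the filled points throughout, by about 0.14 at left and 0.88 at right, and Crat is lower in ND-646 (-0.43) and higher in tumour (2.47).

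Among the acyl-CoA dehydrogenases, Acadl and Acads were not called with ND-646 and the others split by direction. Acadsb, the dehydrogenase of short branched chains from isoleucine, had 46.1, 45.7, 43.6 and 43.6 CPM in ND-646 cultures and 35, 35.4, 36.1 and 35 CPM in vehicle cultures. Every ND-646 library lay above every vehicle library, with a log2 fold change of 0.34 ± 0.04 (SE; adjusted p = 2.16e-06). Acad10, a dehydrogenase family member of less well known substrate, had 14.7, 12.9, 13 and 12.6 CPM with ND-646 and 10.8, 10.7, 10.7 and 11.2 CPM with vehicle. ND-646 replicate 1 was the highest, the groups did not overlap, and the log2 fold change was 0.30 ± 0.07 (SE; adjusted p = 0.00134). Acadm, the medium-chain dehydrogenase, was also higher, by 0.17 ± 0.05 (SE; adjusted p = 0.00655), with no overlap between groups. Acadl, the long-chain dehydrogenase, had 154, 152, 149 and 151 CPM with ND-646 and 155, 161, 161 and 164 CPM with vehicle. The groups were separate but close, and the log2 fold change of -0.08 ± 0.03 (SE; adjusted p = 0.0647) was not called, though it was called without ND-646 replicate 1 (adjusted p = 0.0339), and it turned to 0.07 under CD8 identity scaling. Acadvl, which acts on very long chains at the inner membrane, was at 63.8 ± 3.55 CPM with ND-646 and 70.2 ± 1.26 CPM with vehicle (SD, n = 4 each; log2 fold change -0.14 ± 0.04 (SE; adjusted p = 0.0112)), a direction that turned under CD8 identity scaling. Acad9, known in human cells mainly as an assembly factor of respiratory complex I, was at 32.6 ± 0.807 CPM with ND-646 and 35.8 ± 1.15 CPM with vehicle (-0.13 ± 0.05 (SE; adjusted p = 0.0182)), also turned by that scaling, and leaving out vehicle replicate 4 ended the call (adjusted p = 0.0775). The log2 fold change of Acads, the short-chain dehydrogenase, was 0.01 ± 0.04 (SE; adjusted p = 0.864), and under CD8 identity scaling it was 0.15 and called.

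The steps after the dehydrogenase were led by Hadh, the dehydrogenase of short and medium 3-hydroxyacyl chains, at 64.6, 59.6, 63.9 and 60.5 CPM with ND-646 and 51.1, 50.01, 48.9 and 50.1 CPM with vehicle. All ND-646 libraries were above all vehicle libraries, with a log2 fold change of 0.31 ± 0.04 (SE; adjusted p = 3.79e-06). Hadha and Hadhb, the alpha and beta subunits of the trifunctional protein that carries out the last 3 steps on long chains, differed in their calls. Hadhb had 63.3, 64.2, 62 and 63.7 CPM with ND-646 and 53.1, 55.8, 56 and 53.4 CPM with vehicle. Its groups were separate, and it was higher by 0.21 ± 0.04 (SE; adjusted p = 0.000129). Hadha had 99.5, 91.9, 87.8 and 94.3 CPM with ND-646 and 100.1, 97.3, 99 and 99.2 CPM with vehicle. ND-646 replicate 1 lay within the range of the vehicle libraries, the log2 fold change of -0.08 ± 0.04 (SE; adjusted p = 0.0875) was not called, it was called without ND-646 replicate 1 (-0.13; adjusted p = 0.0118), and it turned to 0.06 under CD8 identity scaling. These genes are head-to-head neighbours on mouse chromosome 5, with 272 bases between their starts in the RefSeq annotation of GRCm38.p6, so the windows of 250 bases before to 50 after each start share 228 bases. The Hadhb window at chr5:30155003-30155302, plus strand, is shown because it holds most of the stretch between the starts of both subunits, with the part it shares with the Hadha window in capitals.
Hadhb: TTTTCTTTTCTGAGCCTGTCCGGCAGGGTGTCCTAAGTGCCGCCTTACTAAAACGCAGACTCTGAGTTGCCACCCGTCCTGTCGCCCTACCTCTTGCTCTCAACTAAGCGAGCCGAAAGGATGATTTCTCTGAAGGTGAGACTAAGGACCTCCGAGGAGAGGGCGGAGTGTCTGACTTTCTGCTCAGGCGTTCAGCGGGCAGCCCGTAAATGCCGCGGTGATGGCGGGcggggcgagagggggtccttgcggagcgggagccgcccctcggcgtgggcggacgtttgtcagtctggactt
The window holds none of the 5 motifs searched. Echs1, the short-chain enoyl hydratase, had a log2 fold change of -0.02 ± 0.04 (SE; adjusted p = 0.766), which turned to 0.13, and was called, under CD8 identity scaling. Acaa2, a mitochondrial thiolase, had 43.6, 34.9, 34.9 and 40.02 CPM with ND-646 and 29.9, 36, 33.7 and 35.8 CPM with vehicle. The groups overlapped, and its log2 fold change of 0.18 ± 0.08 (SE; adjusted p = 0.0689) was called without ND-646 replicate 2 (adjusted p = 0.0336) or replicate 3 (adjusted p = 0.0345).

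Of the auxiliary enzymes for unsaturated chains, Decr1, the mitochondrial dienoyl reductase, had 27.5, 26.3, 23.8 and 25.3 CPM with ND-646 and 21.2, 21.5, 19.1 and 19.7 CPM with vehicle. The ND-646 libraries lay above the vehicle libraries, by a log2 fold change of 0.34 ± 0.06 (SE; adjusted p = 0.000135). Eci1, an enoyl isomerase, had 38.1, 36.3, 36.5 and 37.6 CPM with ND-646 and 37.3, 37.8, 35.3 and 36.8 CPM with vehicle. Its groups overlapped (0.01 ± 0.04 (SE; adjusted p = 0.825)). The electron transfer genes went in different directions. Etfb, the beta subunit of electron transfer flavoprotein, had 49.7, 42.2, 38 and 44.8 CPM with ND-646 and 52.3, 59.1, 51.7 and 56.4 CPM with vehicle. The highest ND-646 library stayed below the lowest vehicle library, and the log2 fold change was -0.33 ± 0.07 (SE; adjusted p = 0.00197). Etfa, the alpha subunit, had 54.9, 52.5, 50.4 and 55.7 CPM with ND-646 and 52.5, 53.7, 53.9 and 54 CPM with vehicle. These ranges overlapped (-0.00 ± 0.04 (SE; adjusted p = 0.933)), and the log2 fold change turned to 0.14, and was called, under CD8 identity scaling. Etfdh, the oxidoreductase that passes the electrons to ubiquinone, was higher at 44.6 ± 1.32 CPM with ND-646 and 40.4 ± 0.801 CPM with vehicle (SD, n = 4 each; 0.15 ± 0.04 (SE; adjusted p = 0.00672)). Slc25a20, the carnitine and acylcarnitine carrier of the inner membrane, had 28.1, 26.9, 23.6 and 26.9 CPM with ND-646 and 29.9, 31.1, 32.8 and 29.7 CPM with vehicle. All ND-646 libraries were below the vehicle libraries, with a log2 fold change of -0.23 ± 0.06 (SE; adjusted p = 0.00295), which under CD8 identity scaling became -0.09 and was not called.

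Of the 3 genes of both compartments, Crat, carnitine acetyltransferase, which buffers acetyl-CoA against acetylcarnitine, had 10.3, 10.5, 9.92 and 9.3 CPM with ND-646 and 13.3, 13, 13.7 and 13.9 CPM with vehicle. It was lower in all ND-646 libraries, by a log2 fold change of -0.43 ± 0.07 (SE; adjusted p = 3.32e-05), the lowest of the set. Eci2, an enoyl isomerase, had 65.9, 63.6, 60.8 and 61.1 CPM with ND-646 and 54.7, 53.8, 54 and 52.2 CPM with vehicle. It was higher in all ND-646 libraries (0.23 ± 0.04 (SE; adjusted p = 0.00011)). Acad11, a dehydrogenase of long chains, had 36.6, 34.2, 34.8 and 37.2 CPM with ND-646 and 30.9, 30.2, 31.5 and 31 CPM with vehicle. It too was higher in all ND-646 libraries (0.21 ± 0.05 (SE; adjusted p = 0.000967)).

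**Figure D2:**
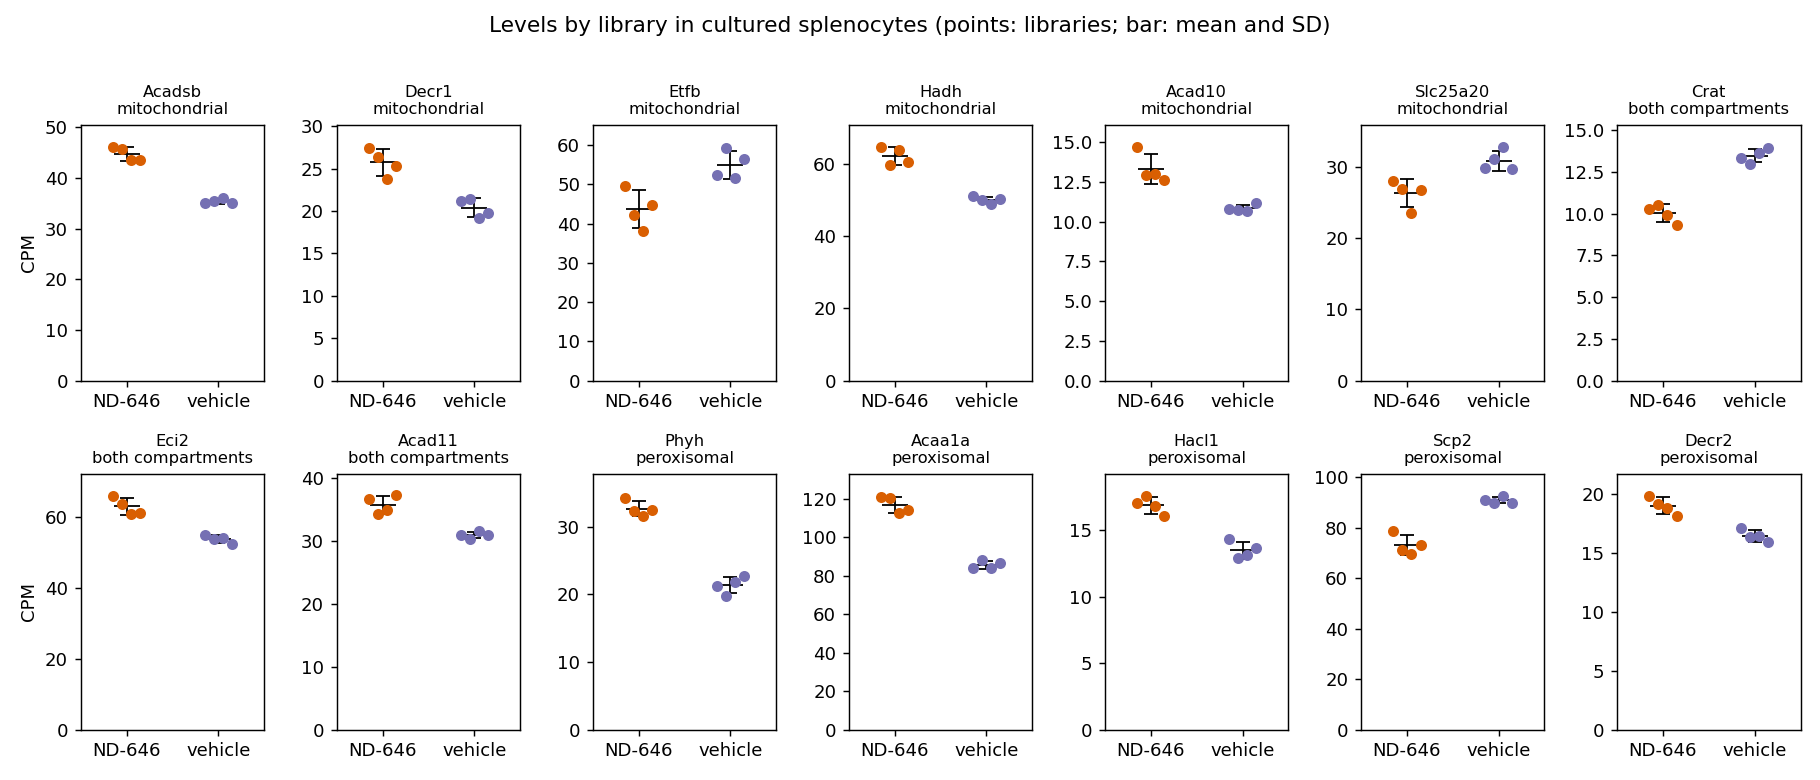
CPM in each library of the ND-646 and vehicle cultures for 14 genes (points: libraries; bars: mean and SD, n = 4 each; each axis starts at 0). In all 14 panels the ND-646 points lie apart from the vehicle points, above them except for Etfb, Slc25a20, Crat and Scp2.

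Among peroxisomal genes, the enzymes of alpha-oxidation were both higher with ND-646. Phyh, phytanoyl-CoA hydroxylase, which begins the breakdown of the branched phytanic acid, had 34.2, 32.4, 31.7 and 32.4 CPM with ND-646 and 21.3, 19.8, 21.8 and 22.7 CPM with vehicle. The ND-646 libraries lay well above the vehicle libraries, with a log2 fold change of 0.61 ± 0.05 (SE; adjusted p = 2.93e-08), the highest of the 32 genes and at the 93.1 percentile of all genes tested. Hacl1, the lyase of the following step, had 17, 17.6, 16.8 and 16.1 CPM with ND-646 and 14.3, 12.9, 13.2 and 13.6 CPM with vehicle. Its groups were separate (0.32 ± 0.06 (SE; adjusted p = 0.000269)). In peroxisomal beta-oxidation, Acaa1a, the thiolase, had 121, 120.2, 113 and 114 CPM with ND-646 and 84.2, 88.3, 83.9 and 86.8 CPM with vehicle. All ND-646 libraries were higher, with a log2 fold change of 0.45 ± 0.04 (SE; adjusted p = 1.53e-08). Scp2, which encodes both a thiolase for branched chains and a sterol carrier protein, had 78.8, 71.2, 69.6 and 73.2 CPM with ND-646 and 91.1, 89.9, 92.5 and 89.96 CPM with vehicle. All ND-646 libraries were lower, with a log2 fold change of -0.31 ± 0.04 (SE; adjusted p = 4.24e-06). The 3 earlier enzymes of peroxisomal beta-oxidation were not called, with log2 fold changes of 0.03 ± 0.05 (SE; adjusted p = 0.602) for the oxidase Acox3, -0.01 ± 0.08 (SE; adjusted p = 0.956) for the L-bifunctional enzyme Ehhadh and -0.07 ± 0.04 (SE; adjusted p = 0.141) for the D-bifunctional enzyme Hsd17b4. Under CD8 identity scaling Ehhadh turned to 0.14 and Hsd17b4 to 0.07, neither of them called.

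Decr2, the peroxisomal dienoyl reductase, had 19.9, 19.2, 18.8 and 18.1 CPM with ND-646 and 17.2, 16.4, 16.5 and 15.9 CPM with vehicle. The groups were separate (0.21 ± 0.06 (SE; adjusted p = 0.00581)). Crot, which makes carnitine esters of shortened chains for export, had 65.6, 59, 60.4 and 64.1 CPM with ND-646 and 53.3, 54.1, 57.6 and 53 CPM with vehicle. It was higher in all ND-646 libraries (0.19 ± 0.05 (SE; adjusted p = 0.00141)), by 0.12 (adjusted p = 0.0433) with ND-646 replicates 2 and 3 only. Abcd3, an importer of branched and long acyl chains and dicarboxylic acids, had 24.4, 25.5, 23.9 and 23.7 CPM with ND-646 and 23.2, 20.9, 21.2 and 22 CPM with vehicle. The ND-646 libraries were just above the vehicle libraries (0.16 ± 0.06 (SE; adjusted p = 0.0211)), and leaving out a library ended the call for vehicle replicate 2 (adjusted p = 0.068), vehicle replicate 3 (adjusted p = 0.0542) or ND-646 replicate 2 (adjusted p = 0.0796). The thioesterase Acot8, which releases free acids, had a log2 fold change of 0.01 ± 0.07 (SE; adjusted p = 0.923).

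The ND-646 libraries fell into pairs by distance, with a chi-square per degree of freedom of 5.39 between 1 and 4, of 3.86 between 2 and 3, and of 7.9 to 12.2 for the other combinations. With either pair alone against the 4 vehicle libraries, 13 genes were higher and 8 lower (replicates 2 and 3) or 15 higher and 5 lower (replicates 1 and 4). The share of all genes called with each pair alone is not given here, so these counts have no background beside them. Acadm (adjusted p = 0.0779) and Etfdh (adjusted p = 0.108) lost their calls with replicates 2 and 3 alone, and Acadvl (adjusted p = 0.193) and Abcd3 (adjusted p = 0.0735) with replicates 1 and 4 alone. Calls were gained by Acadl (-0.10, adjusted p = 0.029) and Hadha (-0.15, adjusted p = 0.0025) with replicates 2 and 3 alone. Acaa2 gained a call (0.31, adjusted p = 0.0004) with replicates 1 and 4 alone. Etfb was lower by either pair, at a log2 fold change of -0.21 with replicates 1 and 4 (adjusted p = 0.00346).

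Related genes from 4 further lists were counted in the same comparison, in which 29.8% of all genes were higher and 26.5% lower, or 46.0% and 15.8% under CD8 identity scaling. Of 16 peroxins, the proteins that build peroxisomes and import their enzymes, 13 were higher with ND-646 and 0 lower (median log2 fold change 0.24, against 0.01 for all genes), and 15 were higher under CD8 identity scaling. Pex6, an ATPase that recycles the import receptor, was at 61.3 ± 3.61 CPM with ND-646 and 42.5 ± 1.5 CPM with vehicle (SD, n = 4 each; log2 fold change 0.53 ± 0.05, adjusted p = 3.12e-08). Pex2, a ubiquitin ligase of the import machinery, was at 26.9 ± 3.09 CPM with ND-646 and 19.8 ± 1.52 CPM with vehicle (0.44 ± 0.08, adjusted p = 0.000158). Pex10, Pex11g and Pex19 were not called. Of 24 other oxidation enzymes tested, 10 were higher and 3 lower, or 6 higher without ND-646 replicate 1 or replicate 4, and 14 higher and 1 lower under CD8 identity scaling. They included Acot2, a mitochondrial acyl-CoA thioesterase, at 19.2 ± 1.44 CPM with ND-646 and 9.31 ± 0.823 CPM with vehicle (1.04 ± 0.08, adjusted p = 2.69e-09), and Amacr, the racemase for branched chains, with a log2 fold change of 0.79 ± 0.13 (adjusted p = 4.96e-05). Gcdh and Ivd, dehydrogenases of amino acid breakdown, were lower, at -0.46 ± 0.05 (adjusted p = 4.94e-07) and -0.18 ± 0.04 (adjusted p = 0.00123), and Ivd was not called under CD8 identity scaling (-0.04).

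In the citrate cycle, which oxidises the acetyl-CoA made by beta-oxidation, 3 of 17 genes were higher and 7 lower with ND-646 (29.8% and 26.5% of all genes), against 8 higher and 2 lower under CD8 identity scaling. Sdha, a subunit of succinate dehydrogenase, was higher by 0.23 ± 0.03 (adjusted p = 1.57e-05). Idh3a, a subunit of isocitrate dehydrogenase, was at -0.46 ± 0.04 (adjusted p = 1.93e-08) and Fh1, fumarase, at -0.25 ± 0.04 (adjusted p = 7.69e-05). Of 10 tested regulators of oxidation genes, 3 were higher and 4 lower, or 5 higher and 2 lower under CD8 identity scaling. Rxra, the retinoid X receptor that pairs with the PPAR receptors, was at 10.8 ± 1.31 CPM with ND-646 and 3.16 ± 0.359 CPM with vehicle (1.77 ± 0.11, adjusted p = 2.32e-10), and its relative Rxrb was higher by 0.52 ± 0.04 (adjusted p = 1.18e-08). The nuclear receptors Pparg and Esrra were lower with ND-646, at -0.49 ± 0.08 (adjusted p = 8.20e-05) and -0.32 ± 0.05 (adjusted p = 2.15e-05). Ppara and Ppargc1a were too low to test.

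The comparison of tumour with spleen asks how the same transcripts stood in CD8+ T cells taken from a tumour, and the changes were larger. Crat rose most, Acad10 fell most, and the peroxisomal oxidase Acox3 and bifunctional enzyme Ehhadh fell by more than any mitochondrial gene but Acad10. Of 32 genes tested, 25 were called, against 83.8% of all genes tested. Of these 12 were higher in tumour libraries, against 43.6% of all 15042 genes tested, and 13 were lower, against 40.2%. By compartment, 8 of 18 mitochondrial genes were higher and 5 lower, 2 of 11 peroxisomal genes were higher and 7 lower, and of the 3 genes of both compartments 2 were higher and 1 lower. The median log2 fold change was 0.18 for the mitochondrial and -0.58 for the peroxisomal genes, against 0.03 for all genes. Tumour and spleen libraries did not overlap in 25 of the 32 genes, against 86.2% of all genes. The fibroblast, myeloid and NK cell markers given above were higher in the same tumour libraries, and the B cell markers were higher in the spleen libraries. The part of these other cells in these changes was not tested. Under CD8 identity scaling 24 genes were higher, against 66.8% of all genes, and 3 were lower, against 13.4%, with 16 mitochondrial genes higher and 1 lower and 6 peroxisomal genes higher and 2 lower. The 12 higher calls were among the 24, which also held 7 genes not called otherwise (Acads, Acadsb, Hadha, Echs1, Slc25a20, Hsd17b4 and Decr2), and the 3 lower were Acad10, Acox3 and Ehhadh. Of the other lower calls, Acaa2 and Scp2 were lost and 8 turned sign, Acadm, Acadvl, Hadhb, Acad11, Acaa1a, Phyh, Hacl1 and Acot8, so that the direction of these 8 depends on the scaling.

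**Figure D3:**
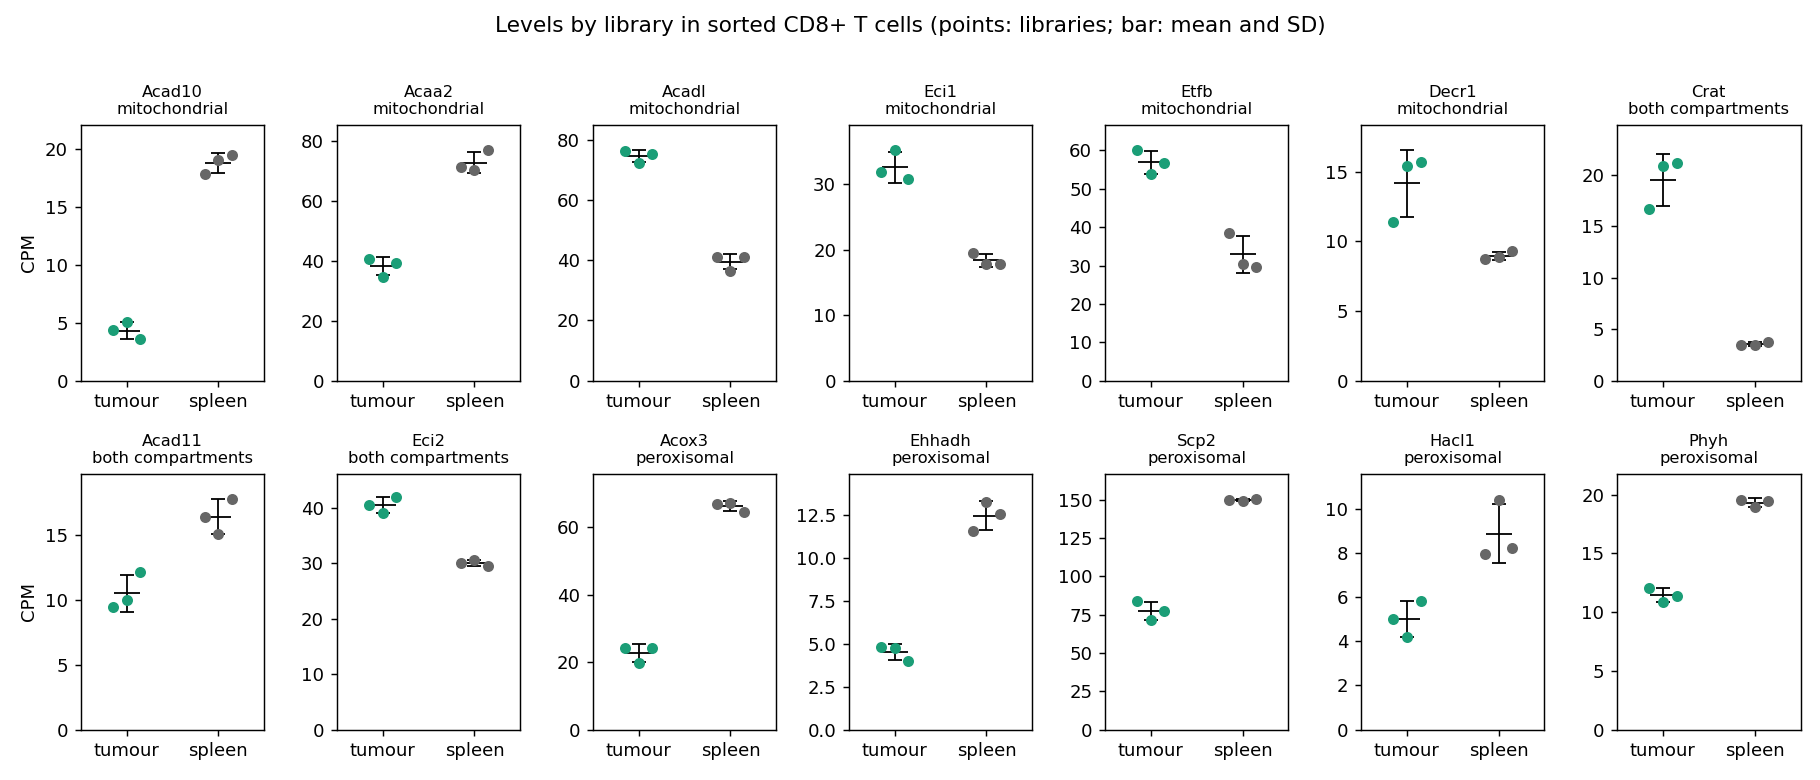
CPM in each tumour and spleen library for 14 genes (points: libraries; bars: mean and SD, n = 3 each; each axis starts at 0). Tumour points lie above spleen points for Acadl, Eci1, Etfb, Decr1, Crat and Eci2 and below them for the other 8 genes.

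Of the acyl-CoA dehydrogenases, Acad10 had 4.35, 5.03 and 3.58 CPM in tumour and 17.9, 19.1 and 19.5 CPM in spleen libraries. The spleen libraries were close to each other and all far above the tumour libraries, with a log2 fold change of -2.12 ± 0.13 (SE; adjusted p = 3.14e-07) and of -1.23 under CD8 identity scaling. Its neighbour Acad12, 2087 bases away and 95.3% identical to it over 1614 bases of transcript, was at 1.49 ± 0.136 CPM in tumour and 6.39 ± 0.582 CPM in spleen libraries (SD, n = 3 each; -2.10 ± 0.18, adjusted p = 2.66e-06), and estimated counts can split reads between such copies. Acadl had 76.1, 72.2 and 75.1 CPM in tumour and 41, 36.5 and 41.1 CPM in spleen libraries. It was higher in all tumour libraries, by 0.91 ± 0.06 (SE; adjusted p = 5.02e-07), while its medium-chain relative Acadm fell, at 39.3 ± 1.5 CPM in tumour and 48.6 ± 1.3 CPM in spleen libraries (-0.31 ± 0.06 (SE; adjusted p = 0.000651)), a direction that turned to 0.58 under CD8 identity scaling. Acadvl, at 66.3 ± 0.573 CPM in tumour and 75 ± 5.07 CPM in spleen libraries, was lower, at a log2 fold change of -0.18 ± 0.06 (SE; adjusted p = 0.016), which was lost without spleen replicate 1 (-0.09, adjusted p = 0.149) or tumour replicate 3 (adjusted p = 0.0623) and turned under CD8 identity scaling to 0.71. Acad9 was higher by 0.21 ± 0.08 (SE; adjusted p = 0.0351), with tumour and spleen libraries overlapping, by 0.32 without tumour replicate 1 (adjusted p = 0.00122), and not called without spleen replicate 1 (adjusted p = 0.0655), spleen replicate 2 (adjusted p = 0.101), tumour replicate 2 (adjusted p = 0.0607) or tumour replicate 3 (adjusted p = 0.084). Acads (0.16 ± 0.08 (SE; adjusted p = 0.075)) and Acadsb (0.20 ± 0.09 (SE; adjusted p = 0.0526)) were not called, but Acads was called without tumour replicate 1 (adjusted p = 0.0423) or 2 (adjusted p = 0.00953) and Acadsb without tumour replicate 1 (adjusted p = 0.00542).

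At the later steps, Acaa2, the mitochondrial thiolase, had 40.6, 34.7 and 39.4 CPM in tumour and 71.2, 70.5 and 76.8 CPM in spleen libraries. All tumour libraries were far below the spleen libraries, with a log2 fold change of -0.93 ± 0.07 (SE; adjusted p = 1.21e-06), but of -0.06 and not called under CD8 identity scaling. Hadha had 140.0, 129.7 and 134 CPM in tumour and 127, 129.8 and 126 CPM in spleen libraries. The ranges met, and the log2 fold change of 0.08 ± 0.05 (SE; adjusted p = 0.162) was called without tumour replicate 2 (adjusted p = 0.0188). Hadhb was at 69.6 ± 3.49 CPM in tumour and 90.8 ± 2.64 CPM in spleen libraries, lower, at a log2 fold change of -0.38 ± 0.05 (SE; adjusted p = 9.67e-05), and turned to 0.50 under CD8 identity scaling. Hadh was higher, at 41.1 ± 4.21 CPM in tumour and 29.1 ± 1.84 CPM in spleen libraries (0.50 ± 0.09 (SE; adjusted p = 0.000478)), and Echs1 was not called (-0.03 ± 0.08 (SE; adjusted p = 0.766)) but turned to 0.84, and was called, under CD8 identity scaling.

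The auxiliary and electron transfer enzymes of mitochondria were all higher in tumour libraries. Eci1 had 31.8, 35.2 and 30.7 CPM in tumour and 19.4, 17.7 and 17.9 CPM in spleen libraries. The groups were well apart (0.83 ± 0.08 (SE; adjusted p = 7.06e-06)). Decr1 had 11.4, 15.4 and 15.7 CPM in tumour and 8.73, 8.89 and 9.28 CPM in spleen libraries. Tumour replicate 1 was the lowest of its group and still above the spleen libraries (0.66 ± 0.14 (SE; adjusted p = 0.00149)). Etfb had 60.05, 53.9 and 56.7 CPM in tumour and 38.5, 30.5 and 29.7 CPM in spleen libraries. Spleen replicate 1 was the highest of its group and below every tumour library (0.79 ± 0.10 (SE; adjusted p = 5.16e-05)). Etfa had 61.5, 62.7 and 61.1 CPM in tumour and 46.7, 44.5 and 45.1 CPM in spleen libraries. Its groups were separate (0.44 ± 0.05 (SE; adjusted p = 1.93e-05)), and Etfdh was higher by 0.46 ± 0.05 (SE; adjusted p = 2.04e-05). The carrier Slc25a20 had 22.6, 18.7 and 24 CPM in tumour and 23.8, 21.6 and 18.9 CPM in spleen libraries. These overlapped throughout, with a log2 fold change of 0.02 ± 0.12 (SE; adjusted p = 0.852).

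Crat had 16.7, 20.8 and 21.2 CPM in tumour and 3.42, 3.45 and 3.74 CPM in spleen libraries. All tumour libraries were higher, on average 5.52-fold, with a log2 fold change of 2.47 ± 0.13 (SE; adjusted p = 1.30e-07), the highest of the 32 genes and at the 82.6 percentile of all genes tested. Eci2 had 40.5, 39.1 and 42.1 CPM in tumour and 30.04, 30.7 and 29.5 CPM in spleen libraries. It was higher in all tumour libraries (0.43 ± 0.06 (SE; adjusted p = 8.94e-05)). Acad11 had 9.44, 10.01 and 12.1 CPM in tumour and 16.4, 15.1 and 17.8 CPM in spleen libraries. It was lower in all tumour libraries (-0.64 ± 0.12 (SE; adjusted p = 0.000783)), but at 0.24 under CD8 identity scaling.

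In peroxisomes, the oxidase Acox3, which acts on branched chains, had 24.4, 19.8 and 24.1 CPM in tumour and 67, 67.3 and 64.5 CPM in spleen libraries. The tumour libraries were all far lower, with a log2 fold change of -1.54 ± 0.08 (SE; adjusted p = 9.82e-08) and of -0.67 under CD8 identity scaling. Ehhadh had 4.79, 4.72 and 3.97 CPM in tumour and 11.6, 13.2 and 12.5 CPM in spleen libraries. It was likewise lower in all tumour libraries (-1.47 ± 0.13 (SE; adjusted p = 3.62e-06), and -0.59 under CD8 identity scaling). Hsd17b4, which carries out the same steps as Ehhadh on other chains, was not called (0.06 ± 0.06 (SE; adjusted p = 0.351)). Scp2 had 83.6, 71.6 and 77.1 CPM in tumour and 149.8, 149 and 150.1 CPM in spleen libraries. The spleen libraries were nearly equal and all above the tumour libraries (-0.95 ± 0.06 (SE; adjusted p = 3.35e-07)), yet under CD8 identity scaling the log2 fold change was -0.07 and not called. Acaa1a had 74.4, 70.7 and 67.4 CPM in tumour and 111, 106 and 102 CPM in spleen libraries. It was lower in all tumour libraries, at a log2 fold change of -0.58 ± 0.06 (SE; adjusted p = 6.21e-06), but at 0.30 under CD8 identity scaling.

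Phyh had 12.1, 10.9 and 11.4 CPM in tumour and 19.6, 18.9 and 19.5 CPM in spleen libraries. The groups were apart, with a log2 fold change of -0.76 ± 0.08 (SE; adjusted p = 2.12e-05), against 0.12 under CD8 identity scaling. Hacl1 had 4.99, 4.21 and 5.83 CPM in tumour and 7.96, 10.4 and 8.23 CPM in spleen libraries. The tumour libraries were the lower ones (-0.82 ± 0.17 (SE; adjusted p = 0.00137)), against 0.05 under CD8 identity scaling. The importer Abcd3 had 30.3, 39.4 and 36.6 CPM in tumour and 25.4, 24 and 22.8 CPM in spleen libraries. With Crot it was the peroxisomal gene that was higher in tumour libraries (0.56 ± 0.10 (SE; adjusted p = 0.000536)). Crot had 63.6, 47.5 and 58.2 CPM in tumour and 43.9, 40.7 and 42.3 CPM in spleen libraries. The tumour libraries spread widely but stayed above the spleen libraries (0.42 ± 0.10 (SE; adjusted p = 0.00329)). Acot8 was lower, at 13.5 ± 1.12 CPM in tumour and 19.3 ± 0.366 CPM in spleen libraries (-0.51 ± 0.09 (SE; adjusted p = 0.000444)), and 0.36 under CD8 identity scaling. Decr2 had 9.24, 12 and 12.6 CPM in tumour and 10.03, 9.19 and 10.1 CPM in spleen libraries. Tumour replicate 1 fell within the spleen range, the log2 fold change was 0.21 ± 0.14 (SE; adjusted p = 0.18), and it was called without that library (0.38, adjusted p = 0.0072).

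The further lists also held calls in both directions, where 43.6% of all genes were higher in tumour libraries and 40.2% lower, or 66.8% and 13.4% under CD8 identity scaling. Of 16 peroxins, 2 were higher and 7 lower in tumour libraries, or 4 higher without tumour replicate 1, and 11 higher and 4 lower under CD8 identity scaling. Pex10, of the import ubiquitin ligase, was at 4.13 ± 0.424 CPM in tumour and 13.3 ± 1.12 CPM in spleen libraries (SD, n = 3 each; -1.68 ± 0.13, adjusted p = 1.60e-06), and Pex11g, of peroxisome division, was lower, at -1.48 ± 0.22 (adjusted p = 0.00013). Pex13 and Pex14, of the docking complex, were higher by 0.83 ± 0.09 (adjusted p = 1.10e-05) and 0.21 ± 0.07 (adjusted p = 0.0173). Of 24 other oxidation enzymes, 5 were higher and 14 lower, or 17 higher and 3 lower under CD8 identity scaling. Amacr was at 27.1 ± 5.41 CPM in tumour and 4.71 ± 0.56 CPM in spleen libraries (2.52 ± 0.17, adjusted p = 6.43e-07), and Acot9, a mitochondrial thioesterase, was higher by 1.42 ± 0.06 (adjusted p = 1.95e-08). Etfbkmt, a methyltransferase that modifies the Etfb protein, was lower, at -1.58 ± 0.12 (adjusted p = 1.60e-06). Of 17 citrate cycle genes, 9 were higher and 4 lower, 2 lower when any single library of the 6 was left out, and all 17 were higher under CD8 identity scaling, as were 66.8% of all genes. Idh3a was higher by 0.83 ± 0.05 (adjusted p = 1.69e-07), while Idh3g (-0.29 ± 0.05, adjusted p = 0.000402) and Sdha (-0.23 ± 0.05, adjusted p = 0.00123) were lower and turned to 0.59 and 0.66 under CD8 identity scaling. Of 9 tested regulators, 2 were higher and 6 lower, or 4 higher and 1 lower under CD8 identity scaling. Ppargc1b, a coactivator of mitochondrial genes, was at 3.34 ± 0.316 CPM in tumour and 19.2 ± 0.932 CPM in spleen libraries (-2.52 ± 0.12, adjusted p = 4.39e-08), and its partner Esrra was lower, at -1.12 ± 0.06 (adjusted p = 9.72e-08) but not called under CD8 identity scaling (-0.24). Rxra and Ppard were higher by 0.83 ± 0.06 (adjusted p = 1.16e-06) and 0.69 ± 0.11 (adjusted p = 0.000351).

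Setting the comparisons side by side, which share no library, 18 of the genes were called in both. Of these, 10 went in opposite directions (55.6%), against 59.9% of the 6538 genes called in both among all genes. Hadh, Decr1, Etfdh, Eci2, Abcd3 and Crot were higher with ND-646 and higher in tumour. CD8 identity scaling kept these calls, but it moved log2 fold changes up and kept every higher call of all genes. Those were 4247 genes with ND-646 and 6551 in tumour, so keeping a higher call says nothing particular about these genes. Acadm, Acad10, Hadhb, Acad11, Acaa1a, Phyh and Hacl1 were higher with ND-646 and lower in tumour, of which only Acad10 was lower in tumour under CD8 identity scaling too. Etfb, Crat and Acad9 were lower with ND-646 and higher in tumour, with Acad9 turning in the cultures under CD8 identity scaling. Acadvl and Scp2 were lower in both, the lower call of Scp2 in tumour and those of Acadvl being lost or turned under that scaling.

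Ratios of counts between genes of a library do not depend on how libraries are scaled, though they carry the length of each transcript. Transcripts of the other cells whose markers are given above also enter these ratios, and their part was not tested. Summed mitochondrial counts per summed peroxisomal counts were 1.97 ± 0.0154 with ND-646 and 2.13 ± 0.0514 with vehicle (SD, n = 4 each), and 2.28 ± 0.0507 in tumour and 1.52 ± 0.0227 in spleen libraries (SD, n = 3 each). The ND-646 libraries lay below all vehicle libraries and the tumour libraries above all spleen libraries. Hadha per Hadhb, subunits of 1 complex, was 1.48 ± 0.0696 with ND-646 and 1.81 ± 0.0676 with vehicle, and 1.93 ± 0.0297 in tumour and 1.41 ± 0.0574 in spleen libraries. Etfa per Etfb, subunits of 1 dimer, was 1.23 ± 0.0926 with ND-646 and 0.979 ± 0.059 with vehicle, and 1.09 ± 0.0702 in tumour and 1.40 ± 0.163 in spleen libraries. The groups were separate in each experiment for both ratios. Scp2 per Acaa1a, the peroxisomal thiolases, was 0.626 ± 0.0267 with ND-646 and 1.06 ± 0.0391 with vehicle, and 1.09 ± 0.0705 in tumour and 1.41 ± 0.0573 in spleen libraries. Acadl per Acadm was 4.06 ± 0.114 with ND-646 and 4.82 ± 0.19 with vehicle, and 1.90 ± 0.109 in tumour and 0.814 ± 0.0613 in spleen libraries. Of 3 further ratios computed, Hadh per Echs1 and Acad10 per Acad9 were also separate in both experiments, but Acadl per Acadvl overlapped in the cultures, at 2.25 to 2.49 with ND-646 and 2.27 to 2.29 with vehicle. These ratios were chosen with the values known, so no test is given.

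**Figure D4:**
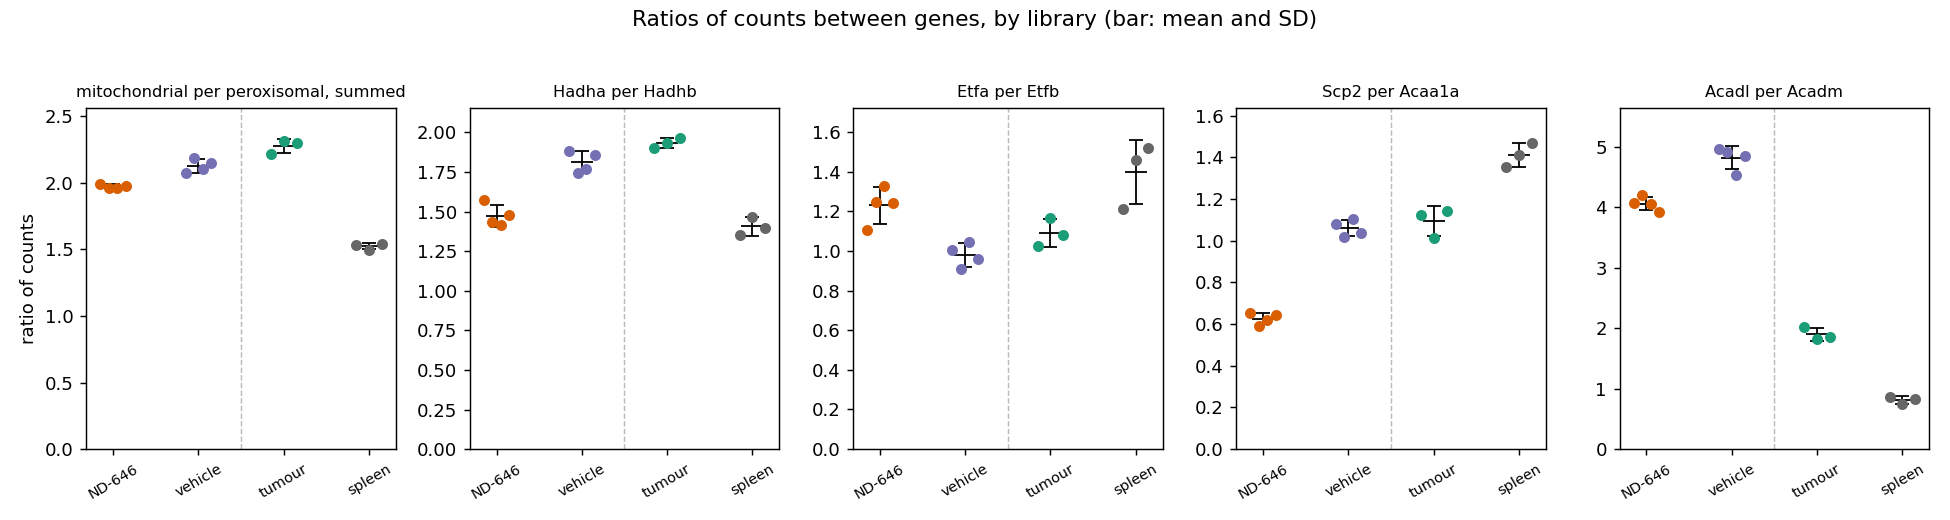
Ratios of counts within each library for 5 pairs or sums of genes (points: libraries; bars: mean and SD; n = 4 each for ND-646 and vehicle, n = 3 each for tumour and spleen; each axis starts at 0). In these 5 panels, out of 8 ratios computed, the ND-646 points do not overlap the vehicle points and the tumour points do not overlap the spleen points.

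The order of the genes by level, in CPM per kb of the principal GENCODE M21 transcript, differed between cultured and sorted cells. The tables were scaled separately, so orders rather than levels are set side by side. Acadl was first in both cultures, at 79.3 ± 1.1 CPM per kb with ND-646 and 83.6 ± 1.84 CPM per kb with vehicle, but at rank 4 in tumour (38.9 ± 1.06) and rank 11 in spleen libraries (20.6 ± 1.37). Acaa1a was second with ND-646 (66.4 ± 2.36 CPM per kb) and at rank 3 with vehicle (48.7 ± 1.2), where Etfb was second (61.5 ± 3.98). In tumour libraries Etfb was first, at 63.7 ± 3.45 CPM per kb, followed by Etfa (44.4 ± 0.604), Acaa1a (40.2 ± 2.01) and Acadl, the last pair within each other's spread. In spleen libraries Acaa1a (60.2 ± 2.41 CPM per kb) and Scp2 (56.7 ± 0.218) came first and second, with every Acaa1a value above every Scp2 value, followed by Acaa2 (48 ± 2.31). Abcd2 was last in every group, preceded by Crat with ND-646 (2.37 ± 0.128 CPM per kb) and in spleen libraries (0.837 ± 0.0418), and by Acad10 with vehicle (2.83 ± 0.0587) and in tumour libraries (1.13 ± 0.189).

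**Figure D5:**
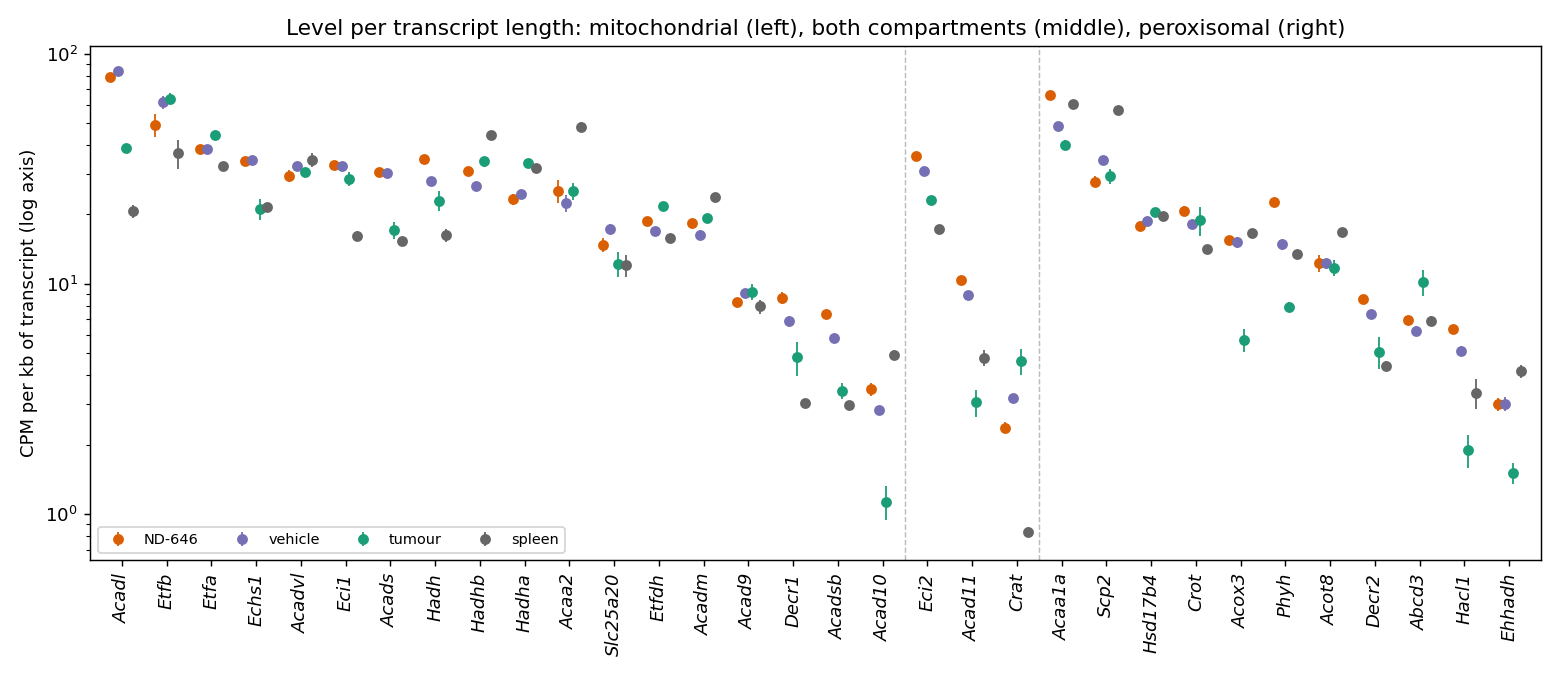
Mean level of each gene per kb of transcript in the 4 groups, on a log axis (bars: SD; n = 4 each for ND-646 and vehicle, n = 3 each for tumour and spleen; Abcd2, near 0, is not drawn). Acadl leads the cultures, and the points of Crat, Acad10 and Acox3 spread the most between tumour and spleen.

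The promoter windows of 27 of the 33 genes were in the RefSeq table of GRCm38.p6 and were searched on both strands for 5 motifs. The NRF1 motif, whose 10 letters are the capitals in the sequences shown, was in the windows of Acad10 and Etfdh, against 0.971% of all 32851 windows. Both genes were higher with ND-646, and in tumour libraries Acad10 fell while Etfdh rose. Their windows are shown on the minus strand, Acad10 at chr5:121660461-121660760 and Etfdh at chr3:79628718-79629017, with the motif in capitals, beginning 8 bases before the start in Acad10 and 128 bases before it in Etfdh.
Acad10: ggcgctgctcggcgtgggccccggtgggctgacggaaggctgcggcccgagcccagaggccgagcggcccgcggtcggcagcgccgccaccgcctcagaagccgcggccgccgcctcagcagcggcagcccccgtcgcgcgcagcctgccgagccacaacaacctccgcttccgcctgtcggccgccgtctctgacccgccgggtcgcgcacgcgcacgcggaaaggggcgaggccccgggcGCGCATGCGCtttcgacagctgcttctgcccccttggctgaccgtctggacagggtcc
Etfdh: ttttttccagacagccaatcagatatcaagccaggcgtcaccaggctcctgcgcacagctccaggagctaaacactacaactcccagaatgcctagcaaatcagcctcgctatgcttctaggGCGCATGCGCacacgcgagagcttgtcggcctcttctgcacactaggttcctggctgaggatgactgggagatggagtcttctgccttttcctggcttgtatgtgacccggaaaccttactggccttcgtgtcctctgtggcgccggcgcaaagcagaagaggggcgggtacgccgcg
The nuclear receptor element AGGTCA was in 5 windows, those of Acadm, Acadvl, Echs1, Scp2 and Phyh, against 16.3% of all windows. With ND-646, Acadm and Phyh were higher, Acadvl and Scp2 lower, and Echs1 was not called. Phyh, the gene of the set with the highest fold change for ND-646 over vehicle, holds it on the reverse strand 37 bases after the start, shown in capitals in the window at chr2:4918746-4919045, plus strand.
Phyh: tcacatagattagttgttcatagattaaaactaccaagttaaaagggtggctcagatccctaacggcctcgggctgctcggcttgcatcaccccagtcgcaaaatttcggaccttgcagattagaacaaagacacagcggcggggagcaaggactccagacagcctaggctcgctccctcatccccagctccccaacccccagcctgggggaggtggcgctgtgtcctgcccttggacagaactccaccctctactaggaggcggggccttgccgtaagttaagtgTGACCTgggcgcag
The oestrogen-related receptor motif (TCA followed by AGGTCA), the direct repeat of AGGTCA with any 1 base between, which both contain AGGTCA, and the E-box of the MITF and TFE factors (TCAC followed by GTGA) were in none of the 27, against 0.423%, 0.0396% and 0.974% of all windows. A match is a description of these letters and not a bound site.

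Several of the counts are less certain than the rest. Acaa1a is 96.6% identical over 1428 bases to Acaa1b, which had 1 count in the culture table and 10 in the tumour and spleen table. Hadhb matches the processed pseudogenes Gm13910 (99.8% over 1428 bases), which is not among the gene symbols of either experiment, and Gm9108, which had 0 counts. Scp2 matches Scp2-ps2 (99.6% over 1371 bases), which had 144 and 104 counts in the culture table and in the other table. Etfb shares 617 bases of exon on the same strand with Gm45233 (99.7% identical over 626 bases), which is not among the gene symbols of either experiment. Acad9 shares 559 such bases with Gm43079 (99.8% identical over 532 bases), which had 574 counts in the culture table and 209 in the other table. Hacl1 shares 1540 such bases with Gm49387 (100% identical over 1150 bases), which had 0 counts in both. Exons of Acadvl overlap those of Dvl2 on the opposite strand over 1151 bases, those of Acaa1a overlap Myd88 over 290 bases, those of Etfdh overlap 4930579G24Rik over 278 bases and those of Acot8 overlap Snx21 over 246 bases, in GENCODE M21. Shorter overlaps on the opposite strand included those of Echs1 with Paox (142 bases), Hacl1 with Btd (108 bases) and Crat with Dolpp1 (59 bases). The use of strand in counting was not given in the sources used here.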

How the data were processed

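Each experiment has 1 table with 55291 gene symbols, in which the authors deposited estimated counts. STAR, Salmon and DESeq2 are named in the submitters' processing notes, with neither role nor version. Genome build, annotation and counting settings were not given in the sources used here. Of the values, 9.159% and 9.152% were not whole (tolerance 1e-06), and counts were rounded. Libraries were poly(A)-selected and directional, with paired reads of 150 bases. The tables were fitted apart with edgeR 4.0.16 under R 4.3.3, using TMM factors, filterByExpr and the robust quasi-likelihood test, with Benjamini-Hochberg adjustment over all genes tested. Standard errors were derived from the F statistic. CPM were computed from the deposited counts. The fit was tested on simulated data. As alternatives, size factors and the Wald test of DESeq2 1.42.0, limma-voom (limma 3.58.1), other filters, scaling by CD8 identity genes, the replicate number as a block and leaving out each library were run. Fits of ND-646 replicates 2 and 3, or 1 and 4, were added after the data were seen. Replicates all differed beyond sampling noise in a chi-square test, and none was counted as a duplicate. Same-numbered libraries did not deviate together, so replicate numbers were not taken to pair samples. The genes and lists were chosen with earlier results of these data known. All genes of the set may be named. Values in every library are given for the called genes of largest change per compartment and the most abundant of each role, and of each other list up to 2 genes per direction are named, at a mean of 1 CPM or more. One gene that this rule names is not reported here. Similar transcripts were found with blastn 2.17.0+ in GENCODE M21, at 90% identity or more over 200 bases or more.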

Additional observations from a re-analysis of the deposited data

Results flagged for a closer look

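Among 65 groups of 4 libraries examined for the genes of the set, 1 held a value far from the others, where chance alone sets about 1 in 20 such groups apart. It was Abcd2 in ND-646 replicate 2, at 0.0293 CPM, against 0 in the other 3 ND-646 libraries. This value is under the 0.0878 CPM that a count of 0 allows in that library, so it marks no difference at this depth.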

How the results depend on the processing

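Scaling libraries by CD8 identity genes had the widest effect. With ND-646, 3 genes were lower, against 15.8% of all genes. Among mitochondrial genes, 12 were higher, against 46.0% of all genes, and 1 lower. Of the genes called without this scaling, Acadvl turned to 0.0043 and Acad9 to 0.0079. Acadl, Hadha, Echs1, Etfa, Ehhadh and Hsd17b4, not called without it, turned as well. In tumour libraries, 24 genes were higher and 3 lower, against 66.8% and 13.4% of all genes. By compartment, 16 mitochondrial genes were higher and 1 lower, and 6 peroxisomal genes were higher and 2 lower. Of the genes of the set called without this scaling, Acadm (0.58), Acadvl (0.71), Hadhb (0.50), Acad11 (0.24), Acaa1a (0.30), Phyh (0.12), Hacl1 (0.051) and Acot8 (0.36) turned. Echs1, not called without it, turned to 0.84. The citrate cycle genes Idh3g (0.59) and Sdha (0.66) turned as well. This scaling moved the median log2 fold change of all genes up by 0.14 in the cultures and by 0.88 between tumour and spleen. Which scaling is nearer to the levels in CD8 T cells was not tested. Under the other alternatives, 490 of 512 values of the genes of the set kept their side of the threshold in the cultures. Between tumour and spleen, 364 of 384 did. Among values of genes called in the TMM-scaled fit, 0 reversed direction. Whether genes not called there changed direction under these alternatives is not given here. The calls that moved involved 8 genes in the cultures and 6 between tumour and spleen, and the cause was not tested. With DESeq2 size factors or its Wald test, Acadvl lost its call in tumour libraries (adjusted p = 0.0741 and 0.178), and Acads, Acadsb and Hadha gained 1. In the cultures, Acadl was called as lower with DESeq2 size factors (adjusted p = 0.0305), the Wald test (0.0496) and a mean of at least 1 CPM (0.0219), and Hadha with size factors (0.0497) and that filter (0.0402), which made 8, 7 and 8 genes lower in place of 6. Acaa2 was called as higher with no low-count filter (0.00213). Acad9 lost its call with no low-count filter in the cultures (adjusted p = 0.0583) and with a mean of at least 1 CPM in tumour libraries (adjusted p = 0.0583). Leaving out 1 library gave 14 to 16 genes higher and 5 to 8 lower with ND-646 (mitochondrial 7 to 8 and 3 to 6, peroxisomal 5 to 6 and 1), and 11 to 15 higher and 12 to 13 lower in tumour libraries (mitochondrial 7 to 10 and 4 to 5, peroxisomal 2 to 3 and 7). The shares of all genes called under the alternatives other than CD8 identity scaling are not given here. These counts therefore have no background beside them.

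Same-numbered libraries deviated together little or not at all, with correlations of deviations of -0.121 to 0.066 in the cultures and -0.046 to -0.019 between tumour and spleen. Only ND-646 and vehicle replicate 4 correlated best with each other. With so few libraries, these correlations cannot show whether same-numbered samples came from the same mouse or culture, which the labels do not state. With the replicate number as a block, 15 genes were higher and 6 lower with ND-646 and 12 higher and 13 lower in tumour libraries, as without it, and 2 rather than 4 citrate cycle genes were lower in tumour libraries. The share of all genes called with this block is not given here either. Depth limits Abcd2 alone among the 33 genes. With 3 or 4 libraries per group, small changes such as those of Acadvl, Acad9 and Abcd3 lie near the threshold.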
